A study of Arabidopsis thaliana with 24 samples.

Results

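The genes described here make, modify and cleave carotenoids in Arabidopsis thaliana. They are 10 genes chosen by name as enzymes of the pathway, with earlier results of these data known, in pathway order PSY, PDS, LYCB, LYCE, BCH1, BCH2, VDE, ZEP, CCD4 and D27, out of 4752 genes with a row in any gene or splicing table used. Of the 10, 9 had a row in the comparison of red light with darkness, 3 had a row in the comparison of an rrc1 mutant with its control line, and 0 had a row in either splicing table.

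Carotenoids are plastid pigments that take part in light harvesting and protect the photosynthetic apparatus from excess light. Phytoene synthase joins geranylgeranyl diphosphate into phytoene, desaturases and isomerases turn this into lycopene, and cyclases and hydroxylases then give lutein on one branch and zeaxanthin on the other, where zeaxanthin is also interconverted with violaxanthin in the xanthophyll cycle. Cleavage of the products yields apocarotenoids, among them the precursors of abscisic acid and strigolactones. In seedlings that emerge into light, carotenoid synthesis is known to rise together with chlorophyll synthesis, and the red-light receptor phytochrome B (phyB) is one of the receptors that take part.

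RNA was sequenced from whole seedlings in 24 libraries, 3 for each of 4 lines in red light and in darkness. The series asks which red-light responses of phyB in the epidermis need RRC1, a protein linked to splicing. Values were deposited as comparisons by the authors for genes, and as reads per library for splicing events. Red-grown and dark-grown MLB seedlings were compared for the response to light. Red-grown EMS27 was compared with red-grown MLB for genes and splicing, and red-grown rrc1-689 with red-grown Col-0 for splicing only, in another background. EMS27 is an rrc1 mutant set against MLB. In MLB, a phyB mutant, phyB is made from the ML1 promoter, which drives expression in the epidermis, so EMS27 and MLB share a phyB supply that is limited to the epidermis. The line rrc1-689 is an rrc1 mutant set against Col-0, the wild type and the ecotype of every line. All seeds were chilled for 2 days and lit for 6 h (white, 50 µmol per m2 and s) before they spent 60 h in red light (19 µmol per m2 and s) or in darkness. The labels write 4 °C beside the white light, the red light and the darkness alike, and it is unclear whether seedlings grew at that temperature.

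Several limits hold for all values. The gene tables give the authors' log2 ratios and no expression level or value per library, so the members' levels in each sample are not shown. Whether the 3 libraries in each group were grown separately is not in the labels, and the spread behind each p-value may be only technical. In whole seedlings, fewer cells that use a gene and less RNA per cell cannot be told apart. The lists of cell markers give only a partial view of this. In red-grown against dark-grown MLB, 3 of 4 root hair genes and 3 of 4 stomatal lineage genes were higher, against 12.8% of all genes tested. There 0 of 5 epidermis genes had a row, against 19.5% of all genes tested. Between EMS27 and MLB, 0 of these 8 root hair and stomatal genes and 0 of 5 epidermis genes had a row, against 5.99% of all genes tested. In lists this short, a count of 0 beside such a share says nothing about cell numbers. The part of these cells in the results was not tested. Neither RRC1 nor PHYB had a row in any table, so the mutant labels could not be checked on the transcript of either gene.

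The promoters of BCH2, BCH1, ZEP and D27 are printed because BCH2, ZEP and D27 were the members lower in EMS27 than in MLB and BCH1 is the close copy of BCH2 without a row. Each is the 300 bases before the annotated gene start on the minus strand of TAIR10.1, read from 5′ to 3′. Capitals mark the G-box CACGTG, a motif bound by bZIP and bHLH factors of light signalling, and the core ACGT, which lies inside the G-box.

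BCH2 promoter, chr5:21337127-21337426, minus strand: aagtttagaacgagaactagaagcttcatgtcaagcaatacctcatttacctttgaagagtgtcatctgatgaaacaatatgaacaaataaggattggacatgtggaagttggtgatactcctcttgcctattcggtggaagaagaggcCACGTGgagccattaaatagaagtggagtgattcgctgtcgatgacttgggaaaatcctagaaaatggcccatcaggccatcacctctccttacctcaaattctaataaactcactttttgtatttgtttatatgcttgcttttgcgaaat

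BCH1 promoter, chr4:13096050-13096349, minus strand: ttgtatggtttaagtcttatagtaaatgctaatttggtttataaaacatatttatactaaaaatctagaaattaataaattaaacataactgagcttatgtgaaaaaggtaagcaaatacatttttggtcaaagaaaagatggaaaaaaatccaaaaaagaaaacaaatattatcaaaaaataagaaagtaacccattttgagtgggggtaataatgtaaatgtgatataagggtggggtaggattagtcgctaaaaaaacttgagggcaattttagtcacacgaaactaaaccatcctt

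ZEP promoter, chr5:26757403-26757702, minus strand: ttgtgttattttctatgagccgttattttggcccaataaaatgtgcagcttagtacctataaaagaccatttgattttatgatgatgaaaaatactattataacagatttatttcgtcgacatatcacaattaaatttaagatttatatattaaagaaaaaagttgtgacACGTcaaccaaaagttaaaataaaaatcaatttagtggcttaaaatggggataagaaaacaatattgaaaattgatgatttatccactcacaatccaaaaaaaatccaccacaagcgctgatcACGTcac

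D27 promoter, chr1:711858-712157, minus strand: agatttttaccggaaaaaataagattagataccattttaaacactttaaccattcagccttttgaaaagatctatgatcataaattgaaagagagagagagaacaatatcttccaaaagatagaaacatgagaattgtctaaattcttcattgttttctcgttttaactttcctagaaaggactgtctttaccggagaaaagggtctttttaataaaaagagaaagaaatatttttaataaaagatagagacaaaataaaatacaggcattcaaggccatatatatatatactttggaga

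BCH2 held 1 G-box, 151 bases before the start, and was the only member with one, also when the window was widened to 1000 bases. Among 27443 promoters of protein-coding genes, 7.09% held a G-box in 300 bases and 14.8% in 1000 bases, on either strand. ZEP held the ACGT core at 130 and 7 bases before the start. BCH1 and D27 held neither motif in 300 bases. The ACGT core was present in 3 of 10 members in 300 bases, including the G-box of BCH2, against 49% of all promoters, and in 9 of 10 members in 1000 bases, against 85%. The third member with the core in 300 bases is LYCE, with the core at 170 and 58 bases, where the window overlaps the neighbouring locus AT5G57020. The evening element AAATATCT of clock-controlled genes was in 0 of 10 members in 300 bases, against 5.64% of all promoters, and in 1 of 10 in 1000 bases, against 15.3%. These matches describe letters in the windows and do not show a bound site.

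Red light raised nearly the whole set. In the authors' deposited table of red-grown over dark-grown MLB, 9 of 10 members were listed and all 9 were higher in red light, with log2 fold changes between 1.02 and 7.37. To be listed, a gene needed a log2 fold change past 1 in either direction and a false discovery rate (FDR) below 0.01. Of the 19916 genes tested, 12.8% were listed as higher in red light and 6.76% as lower, 19.5% in all. D27 rose most, CCD4, ZEP and BCH2 followed with about equal changes, and PDS and LYCB lay just above the listing threshold. BCH1 had no row, which means either that it did not pass both thresholds or that it was not tested. With BCH1 placed lowest, the median log2 fold change of all 10 members was 1.94, and that of all genes listed as higher in the authors' deposited table was 1.75.

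PSY encodes phytoene synthase, the enzyme of the committed and rate-limiting step of the pathway (AT5G17230, chromosome 5, 5659554 to 5662997). It was 4.73-fold higher in red-grown than in dark-grown MLB in the authors' deposited table (log2 fold change 2.24, FDR 4.29e-68). The standard error implied by the authors' deposited table, from the fold change and its p-value under a normal approximation, was 0.127, with an interval of 1.99 to 2.49 at 95%. Such errors are approximate and are given for every member below. PDS encodes phytoene desaturase, which makes the next intermediates on the way to lycopene (AT4G14210, chromosome 4, 8190190 to 8195320). Its log2 fold change of 1.02 in the authors' deposited table (2.02-fold, FDR 1.05e-31) had an implied interval of 0.849 to 1.18. This interval holds the listing threshold of 1.

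At the branch point, LYCE rose more than LYCB in point value. LYCE, the lycopene epsilon-cyclase that opens the lutein branch (AT5G57030, chromosome 5, 23077120 to 23080096), was 3.11-fold higher in red light in the authors' deposited table, with a log2 fold change of 1.64 and an implied interval of 1.41 to 1.86. It overlaps AT5G57020, and the labels and headers do not give the treatment of reads in the overlap. LYCB, the lycopene beta-cyclase needed on both branches (AT3G10230, chromosome 3, 3164075 to 3166038), was 2.03-fold higher in the authors' deposited table, with a log2 fold change of 1.02 and an implied interval of 0.869 to 1.17. The intervals of LYCE and LYCB do not overlap, and no test of their difference was possible without values per library.

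The beta-carotene hydroxylases BCH1 and BCH2 carry out the same step, from beta-carotene to zeaxanthin, and only BCH2 had a row. BCH2 (AT5G52570, chromosome 5, 21334793 to 21337126) was 7.51-fold higher in red-grown than in dark-grown MLB in the authors' deposited table (log2 fold change 2.91, interval 2.74 to 3.08, FDR 1.28e-234). BCH1 (AT4G25700, chromosome 4, 13093869 to 13096049) had no row in either gene table, so its difference from BCH2 was not tested. Their coding sequences of 933 bases for BCH1 and 912 bases for BCH2 were 83.7% identical over 887 aligned bases. The longest run shared without a mismatch in their exons was 33 bases, and the labels and headers do not give the treatment of reads that match several places.

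The xanthophyll cycle enzymes both rose, and ZEP by more than VDE in point value. ZEP encodes zeaxanthin epoxidase, which makes violaxanthin and is also required for abscisic acid synthesis (AT5G67030, chromosome 5, 26753469 to 26757402). It was 8.65-fold higher in red light in the authors' deposited table (log2 fold change 3.11, interval 2.89 to 3.33, FDR 2.03e-169). VDE encodes violaxanthin de-epoxidase, which runs the reverse reaction in strong light (AT1G08550, chromosome 1, 2706868 to 2709988). It was 2.40-fold higher in the authors' deposited table (log2 fold change 1.27, interval 1.10 to 1.43, FDR 4.13e-48). The intervals do not overlap.

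On the cleavage side, CCD4 and D27 rose strongly. CCD4, a carotenoid cleavage dioxygenase that degrades beta-carotene in seeds and leaves (AT4G19170, chromosome 4, 10481619 to 10483879), was 8.93-fold higher in red light in the authors' deposited table (log2 fold change 3.16, interval 2.96 to 3.35, FDR 2.21e-217). D27, the beta-carotene isomerase that begins strigolactone synthesis (AT1G03055, chromosome 1, 710018 to 711857), was 165-fold higher in the authors' deposited table (log2 fold change 7.37, interval 6.58 to 8.16, FDR 3.74e-73). The implied standard error of D27 was 0.403, the widest of the 9, against 0.0777 for LYCB, the narrowest. Since the authors' deposited table gives no level, the reads behind the dark-grown value of D27 are unknown.

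**Figure D1:**
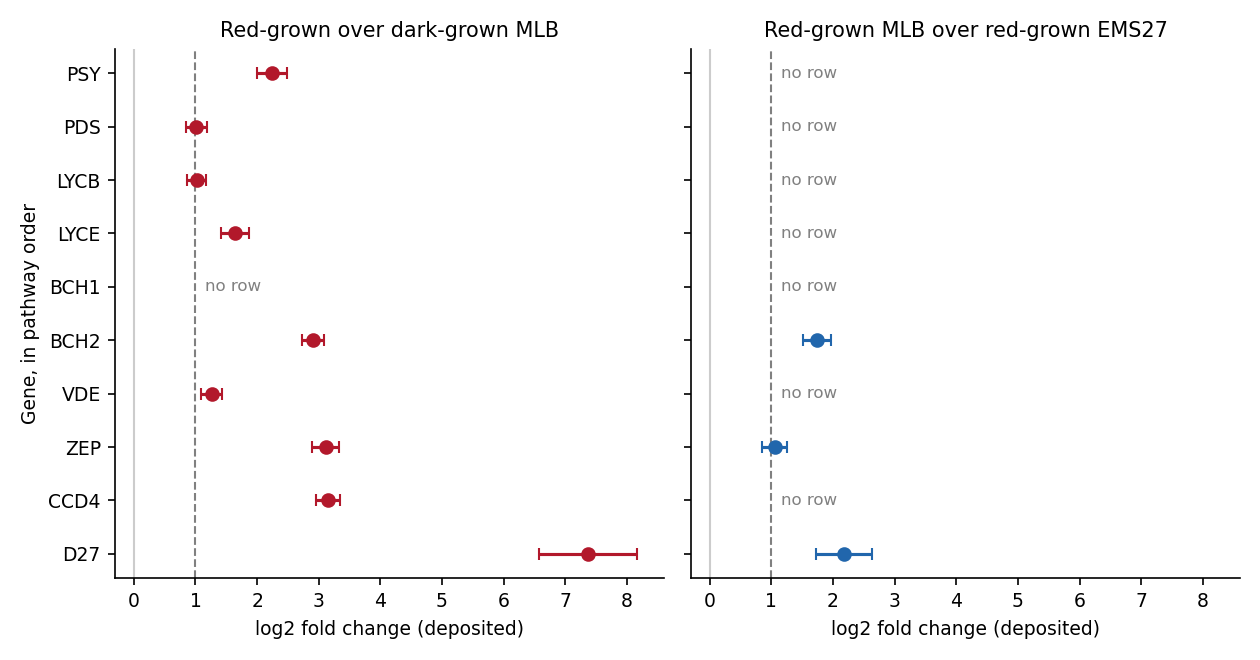
Log2 fold changes from the authors' deposited tables for the 10 carotenoid genes, in pathway order from top to bottom, for red-grown over dark-grown MLB at left and for red-grown MLB over red-grown EMS27 at right, where a positive value means lower in EMS27. Points are deposited values, bars are 95% intervals implied by the authors' p-values, dashed lines mark the listing threshold of 1 and "no row" marks genes without a row: 9 genes rose in red light, between 1.02 and 7.37, and BCH2, ZEP and D27 were lower in EMS27.

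Set among all genes that rose in red light, the members spread over most of the range. D27 ranked 33 among the 2540 genes listed as higher in the authors' deposited table, so that 1.26% of them rose more. CCD4 ranked 367, ZEP 379 and BCH2 448 in the same authors' deposited table. PSY ranked 802, LYCE 1421 and VDE 1976 there, and LYCB and PDS stood near the end of the authors' deposited table at 2483 and 2504. The intervals of BCH2, ZEP and CCD4 overlap one another, as do those of PDS, LYCB and VDE, so the order within each of these groups is not resolved. Those of VDE and LYCE overlap as well, so their order is not resolved either. The interval of D27 overlaps that of no other member, and neither does that of PSY.

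**Figure D2:**
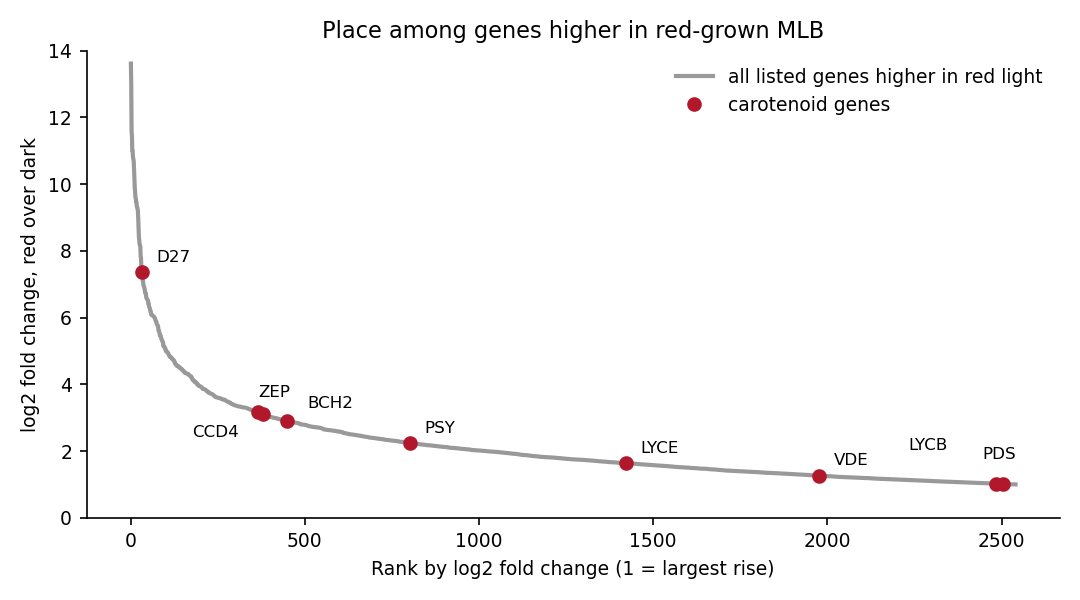
Rank by log2 fold change (x axis, 1 is the largest rise) against log2 fold change of red-grown over dark-grown MLB (y axis) for the 2540 genes listed as higher in the authors' deposited table (line), with the 9 listed carotenoid genes as points. D27 stands near the top at rank 33, CCD4, ZEP and BCH2 stand together at 367 to 448, and LYCB and PDS lie at 2483 and 2504.

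Of 39 genes in 7 lists covering precursor supply, the remaining steps of synthesis, cleavage, hormones made from carotenoids and regulators, 8 were higher and 2 were lower in red-grown than in dark-grown MLB in the authors' deposited table, and 29 had no row, where 12.8% of all genes tested were higher and 6.76% were lower. In the plastid methylerythritol phosphate (MEP) pathway and the supply of geranylgeranyl diphosphate (GGPP), 5 of 10 genes rose, 0 fell and 5 had no row: log2 fold changes in the authors' deposited table were 1.44 for DXS, the entry enzyme, 1.32 for DXR, 1.31 for MCT, 1.96 for MDS and 1.35 for HDS. CMK, HDR, the isopentenyl diphosphate isomerases IPI1 and IPI2, and GGPPS11, which makes the substrate of phytoene synthase, had no row.

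Between PDS and the cyclases, 0 of 3 genes had a row, against 19.5% of all genes tested. These were Z-ISO, ZDS and CRTISO, which complete desaturation and isomerisation to lycopene. Of 4 genes for other xanthophyll steps, LUT5 rose, and LUT1, CYP97B3 and ABA4 had no row. LUT5, a cytochrome P450 that hydroxylates the beta-ring of alpha-carotene on the way to lutein, was 6.88-fold higher in red light in the authors' deposited table (log2 fold change 2.78, implied standard error 0.102, FDR 3.97e-162).

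Among the 8 other cleavage dioxygenases, 0 rose and 1 fell, where 12.8% of all genes tested were higher and 6.76% were lower. In a list this short, these counts are not read as a contrast with CCD4 and D27. CCD8, which acts after D27 and CCD7 in strigolactone synthesis, was 3.45-fold lower in red-grown than in dark-grown MLB in the authors' deposited table (log2 fold change -1.79, implied standard error 0.175, FDR 2.18e-23), whereas D27 rose. CCD7, CCD1 and the 9-cis-epoxycarotenoid dioxygenase genes NCED2, NCED3, NCED5, NCED6 and NCED9, which make the abscisic acid precursor, had no row. Neither did the 3 genes that complete abscisic acid synthesis (ABA2, AAO3 and ABA3) or the 4 later genes of strigolactone synthesis and perception (MAX1, LBO, D14 and MAX2).

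Of 7 regulators and photoprotection genes, 2 rose and 1 fell, where 12.8% of all genes tested were higher and 6.76% were lower. PSBS, the photosystem subunit that triggers heat dissipation together with zeaxanthin, was 5.92-fold higher in red light in the authors' deposited table (log2 fold change 2.57, FDR 1.46e-67). AT5G61670, annotated as the orange protein (ORANGE), a chaperone that stabilises phytoene synthase, was 2.91-fold higher in the authors' deposited table (log2 fold change 1.54, FDR 6.33e-96). RAP2.2, an ethylene response factor reported to bind the PSY promoter, was 2.21-fold lower in the authors' deposited table (log2 fold change -1.15, FDR 4.78e-35). PIF1, a repressor of PSY in darkness, HY5, an activator of PSY in light, the histone methyltransferase gene SDG8 and AT5G06130 had no row. For comparison, 9 of 14 chlorophyll synthesis genes rose and 2 fell, against the same 12.8% and 6.76% of all genes tested. CAO, the chlorophyllide a oxygenase, led these rises at a log2 fold change of 3.48 in the authors' deposited table.

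**Figure D3:**
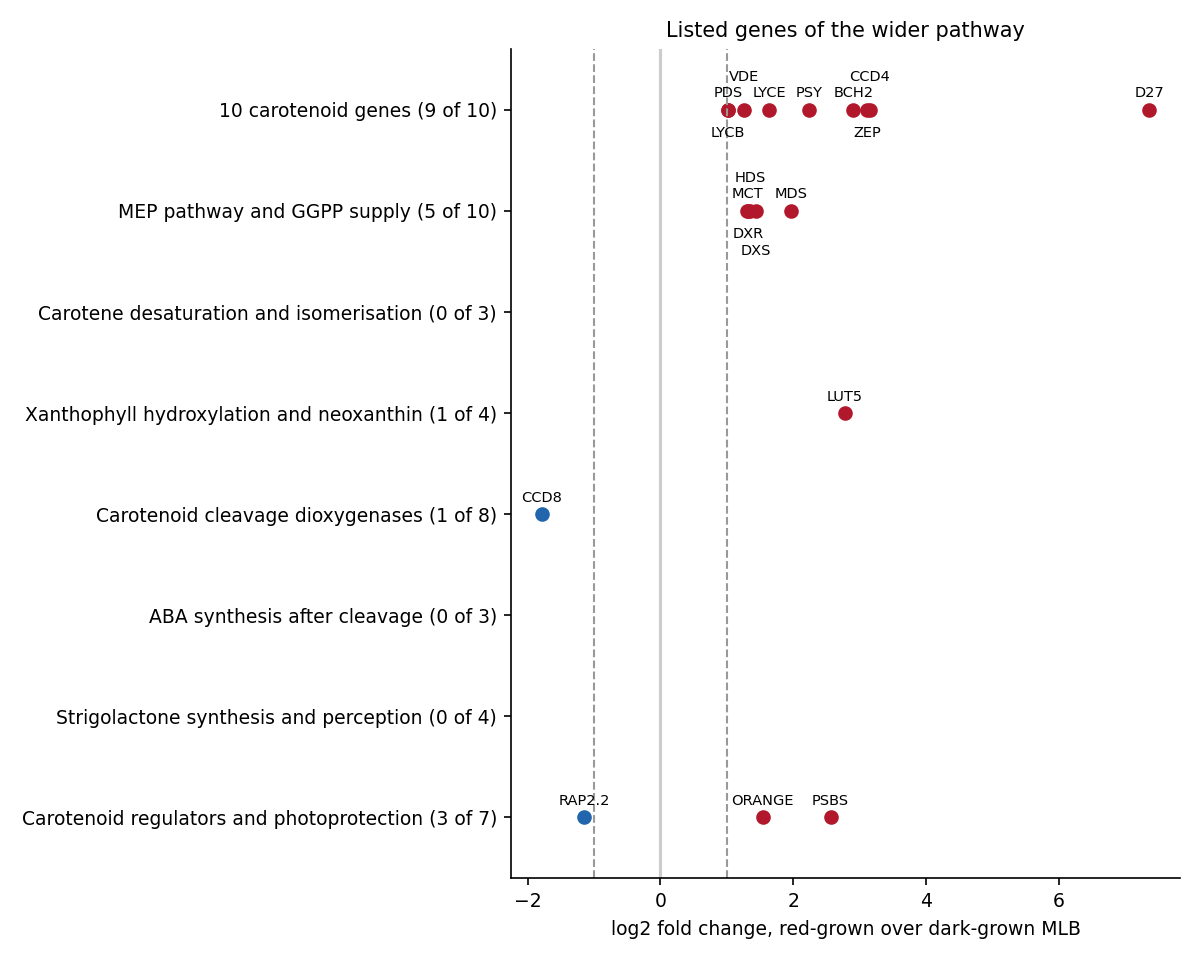
Log2 fold changes of red-grown over dark-grown MLB (x axis) from the authors' deposited table for the 10 carotenoid genes and 7 lists of the wider pathway (y axis), with the number of listed genes of each list's size in brackets and dashed lines at the listing thresholds. Red points rose and blue points fell in red light: CCD8 at -1.79 and RAP2.2 at -1.15 are the falls, and 3 lists have no listed gene.

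In red light, 3 members were lower in EMS27 than in MLB, and none was listed as higher in EMS27. They were BCH2 and ZEP, of zeaxanthin and violaxanthin synthesis, and D27, of the strigolactone branch. The authors' deposited table gives this comparison as MLB over EMS27, so a positive log2 fold change means lower in EMS27. In it 1146 of 19143 genes tested were listed, which is 5.99%, with 4.14% lower in EMS27, like these 3 members, and 1.85% higher. PSY, PDS, LYCB, LYCE, BCH1, VDE and CCD4 had no row. A missing row does not show that a gene's levels were alike in EMS27 and MLB.

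D27 was 4.52-fold lower in EMS27 than in MLB in the authors' deposited table (log2 fold change of MLB over EMS27 2.18, implied standard error 0.231, interval 1.72 to 2.63, FDR 1.67e-19). BCH2 was 3.33-fold lower in EMS27 in the authors' deposited table (log2 fold change of MLB over EMS27 1.73, implied standard error 0.116, interval 1.51 to 1.96, FDR 4.12e-48). ZEP was 2.07-fold lower in EMS27 in the authors' deposited table (log2 fold change of MLB over EMS27 1.05, interval 0.854 to 1.25, FDR 4.97e-24). The interval of ZEP holds the listing threshold of 1, those of D27 and BCH2 overlap, and that of ZEP overlaps neither. Among the 792 genes listed as lower in EMS27, D27 ranked 76, BCH2 152 and ZEP 701 by size in the authors' deposited table.

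Both gene comparisons use the red-grown MLB libraries, so they are not independent. Side by side in the authors' deposited tables, BCH2 had a log2 fold change of 2.91 for red over dark and 1.73 for MLB over EMS27, ZEP had 3.11 and 1.05, and D27 had 7.37 and 2.18. Subtracting the second value from the first removes red-grown MLB and leaves red-grown EMS27 over dark-grown MLB. From the authors' deposited tables this gave 1.18 for BCH2, 2.06 for ZEP and 5.19 for D27 on the log2 scale, or 2.26-fold, 4.18-fold and 36.5-fold higher in red-grown EMS27 than in dark-grown MLB. By these values, all 3 genes stood above dark-grown MLB in red-grown EMS27. That they stood below red-grown MLB follows from their choice, since only members listed as lower in EMS27 could be used. The subtracted values carry no error, because the tables were normalised separately and hold no values per library. Dark-grown EMS27 entered neither comparison.

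Of the 39 genes of the wider pathway, 0 had a row between EMS27 and MLB, the 5 precursor genes and LUT5 included. Only 5.99% of all genes tested had a row there, so the count of 0 is not read as a contrast with the members. In the chlorophyll synthesis list, 2 of 14 genes had a row, and both were higher in EMS27, as were 1.85% of all genes tested. These were the protochlorophyllide oxidoreductase genes PORA and PORB, for which the authors' deposited table gave -2.43 for PORA and -1.12 for PORB as log2 fold change of MLB over EMS27. Both had been lower in red-grown than in dark-grown MLB, at -7.48 for PORA and -1.59 for PORB in the authors' deposited table.

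For each member in both gene tables, the 3 most alike genes were taken by Euclidean distance between log2 fold changes, over all genes with a row in both gene tables and over both comparisons. BCH2 had close neighbours, among them HYH, a homolog of the light signalling factor HY5, at a distance of 0.0715, with 2.89 for red over dark and 1.66 for MLB over EMS27 in the authors' deposited tables. AT3G47580, at 0.0391, and AT5G44572, at 0.159, were the others by values of the authors' deposited tables. ZEP lay close to AT3G09905, AT1G51110 and AT2G42975, at distances of 0.0517 to 0.0710 in the authors' deposited tables. D27 had no such close neighbour: the nearest in the authors' deposited tables were ATCSLA15, a gene of the cellulose synthase-like family, at 0.628, BBX32, a B-box factor of light signalling, at 0.705, and AT3G10185 at 0.798.

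No member had a listed splicing event in EMS27 against MLB or in rrc1-689 against Col-0. The splicing tables hold listed events only, 325 events in 264 genes for EMS27 and MLB and 328 events in 270 genes for rrc1-689 and Col-0, so an event of a member that did not reach the authors' limits would have no row. The number of genes tested for splicing is unknown, and genes with a listed event are few beside the 19143 tested for expression in EMS27 and MLB, so nothing is read from the count of 0 of 10. All members but CCD4 have an annotated intron in at least 1 transcript. RefSeq gives CCD4 1 exon, LYCB 1 or 2 exons and ZEP 16 exons.

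In the wider pathway, introns of AT5G06130 and CCD1 were listed. AT5G06130 had a higher deposited retention level in both mutants than in their controls, with nearly all of the added reads at the 3′ boundary of the intron. CCD1, a dioxygenase that forms volatile apocarotenoids, had a higher level in EMS27 than in MLB, with reads at both boundaries. AT5G06130 was put among the carotenoid regulators from outside knowledge, while RefSeq annotates it only as a chaperone protein dnaJ-like protein, so its place in the pathway is uncertain. Their splice sites are shown because the reads at each site make up the retention level. Each line gives 40 bases from 5′ to 3′ on the gene's strand in TAIR10.1, and capitals mark the intron's GT or AG.

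AT5G06130 donor, chr5:1854906-1854945, minus strand: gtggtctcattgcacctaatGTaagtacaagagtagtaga

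AT5G06130 acceptor, chr5:1854481-1854520, minus strand: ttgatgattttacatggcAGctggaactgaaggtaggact

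CCD1 donor, chr3:23453136-23453175, plus strand: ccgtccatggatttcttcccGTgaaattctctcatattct

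CCD1 acceptor, chr3:23453217-23453256, plus strand: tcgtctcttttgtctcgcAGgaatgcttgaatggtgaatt

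The AT5G06130 intron has 425 bases on chromosome 5, from 1854501 to 1854925, between exons 3 and 4, with coding sequence on both sides. Its retention level, the reads across the exon-intron boundaries as a share of these plus the spliced reads counted doubly, was 15.6%, 18.8% and 15.1% in red-grown EMS27 and 1.54%, 0% and 0.366% in red-grown MLB. The level at 0 rests on 159 reads, which allows a share of up to 1.89% of reads by counting error alone. This share counts each spliced read once, so on the scale of the level the limit is lower. Every EMS27 library was above every MLB library. The means were 16.5 ± 2.03% in EMS27 and 0.635 ± 0.804% in MLB (SD, n = 3 each), a difference of 15.9 percentage points. On the logit scale the difference was 3.62 with a standard error of 0.583 (limma, adjusted p = 0.00196). Of all listed events of EMS27 and MLB, 89.5% passed the same threshold, and the authors had listed all of them for a difference. The share of listed events without overlap between libraries was not computed in either background, so the lack of overlap is description only.

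In the other background, the level of the same AT5G06130 intron was 12.6%, 11.1% and 15.7% in red-grown rrc1-689 and 1.18%, 0.251% and 0.237% in red-grown Col-0, again without overlap. The means were 13.1 ± 2.34% in rrc1-689 and 0.555 ± 0.538% in Col-0 (SD, n = 3 each), a difference of 12.5 percentage points. The logit difference was 3.29 with a standard error of 0.395 (limma, adjusted p = 0.00105), where 88.7% of listed events passed. The effect of EMS27 minus that of rrc1-689 was 0.33 on the logit scale, with a 95% interval of -1.34 to 2.00 (limma interaction over 136 shared events, adjusted p = 0.978). This interval is wide and leaves room for a difference in either direction. The shared events are those listed in both backgrounds, so events listed in a single background, such as that of CCD1, could not enter this comparison.

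**Figure D4:**
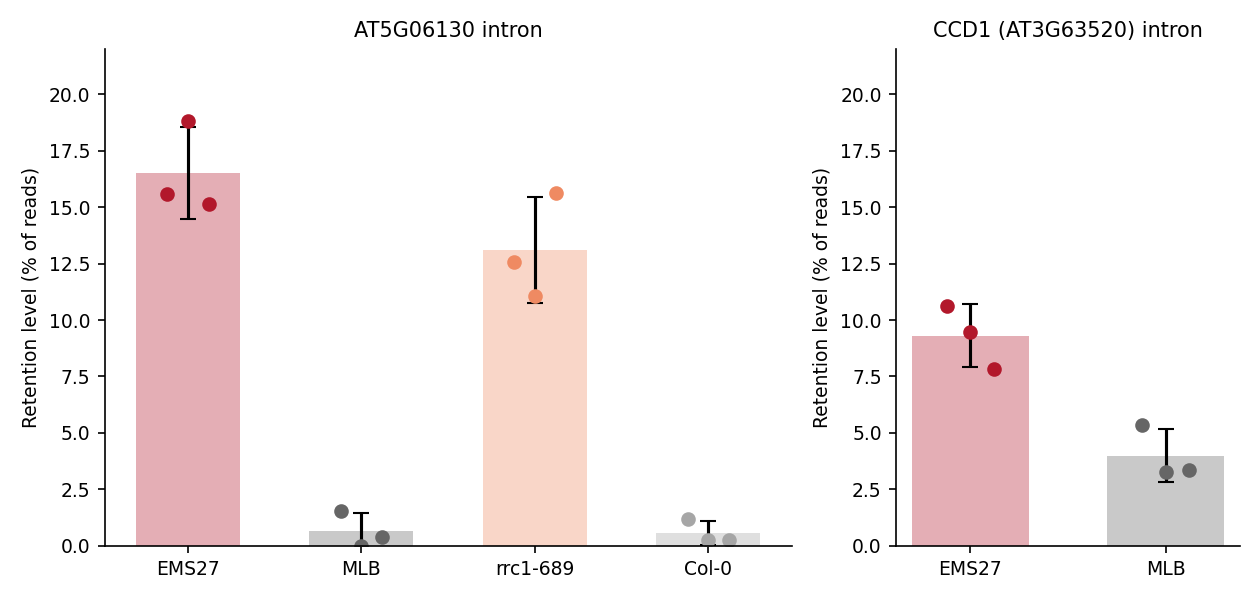
Retention level in percent of reads (y axis) of the AT5G06130 intron and the CCD1 intron in red-grown lines (x axis), with points for libraries and bars for means ± SD (n = 3). For AT5G06130 the EMS27 libraries lie at 15.1% to 18.8% and those of rrc1-689 at 11.1% to 15.7%, above all MLB and Col-0 libraries, and for CCD1 the EMS27 libraries lie at 7.84% to 10.6%, above MLB at 3.25% to 5.35%.

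The boundaries of the AT5G06130 intron differed in their reads. At the acceptor, or 3′ boundary, 37, 38 and 35 reads crossed from intron to exon in EMS27, against 3, 0 and 1 in MLB. At the donor, or 5′ boundary, 1, 1 and 1 reads crossed in EMS27, against 1, 0 and 0 in MLB. The pattern was alike in the other background, with 47, 44 and 44 reads at the 3′ boundary in rrc1-689 and 1, 1 and 1 in Col-0, and with 1, 0 and 2 reads at the 5′ boundary in rrc1-689 and 4, 0 and 0 in Col-0. Spliced reads numbered 103, 84 and 101 in EMS27, against 128, 159 and 136 in MLB, and 167, 177 and 124 in rrc1-689, against 210, 199 and 210 in Col-0. Nearly all reads behind the higher retention level thus lay at the 3′ boundary, and the deposited level averages both boundaries. No read sums over the intron's interior were used here, so the table does not show how far into the intron these reads reach.

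**Figure D5:**
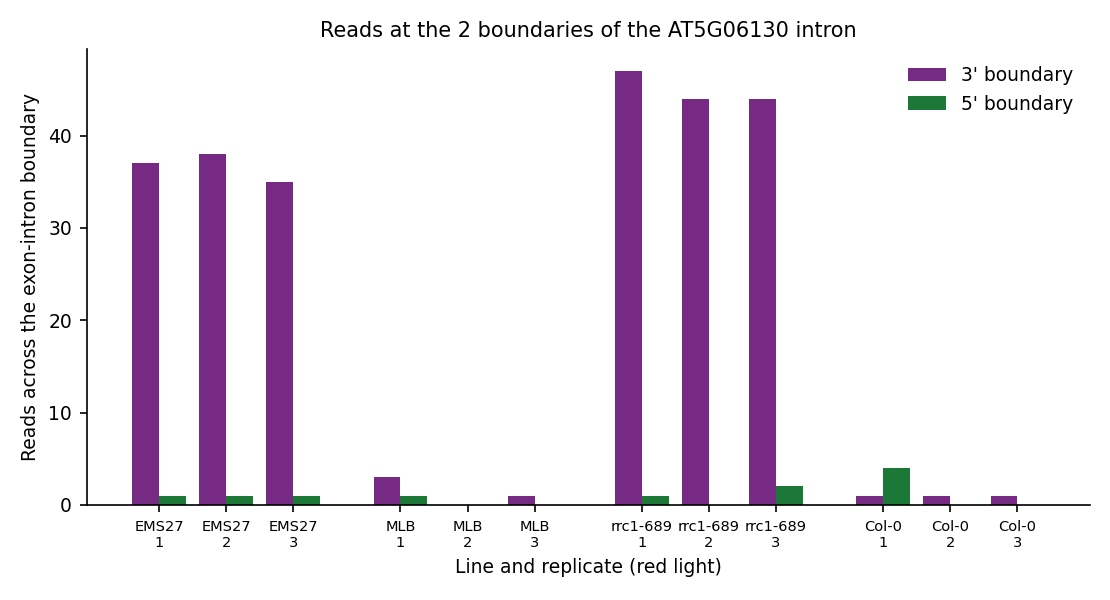
Reads across the 3′ boundary (purple) and the 5′ boundary (green) of the AT5G06130 intron (y axis, raw reads) in each red-grown library (x axis). EMS27 has 35 to 38 and rrc1-689 has 44 to 47 reads at the 3′ boundary, against 0 to 3 in MLB and 1 in each Col-0 library, and no library has more than 4 at the 5′ boundary.

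The CCD1 intron has 81 bases on chromosome 3, from 23453156 to 23453236, between exons 1 and 2, with coding sequence on both sides. Its level was 10.6%, 9.47% and 7.84% in red-grown EMS27 and 5.35%, 3.25% and 3.36% in red-grown MLB. Every EMS27 library was above every MLB library, by a smaller margin than for AT5G06130. As for that intron, this is description only, since the authors had listed the event for a difference in the same reads. The means were 9.31 ± 1.40% in EMS27 and 3.99 ± 1.18% in MLB (SD, n = 3 each), a difference of 5.33 percentage points. The logit difference was 0.91 with a standard error of 0.274 (limma, adjusted p = 0.0186), where 89.5% of listed events passed. The call was near the threshold of 0.05: without EMS27 replicate 1 the adjusted p was 0.0534 and without MLB replicate 2 it was 0.0513 (limma). The logit difference was then 0.84 and 0.82. Reads lay at both boundaries, with 28, 9 and 17 at the donor and 21, 23 and 16 at the acceptor in EMS27, against 15, 10 and 11 at the donor and 11, 8 and 7 at the acceptor in MLB. CCD1 had no row between rrc1-689 and Col-0 and no row in either gene table, so neither its level in those lines nor a change of its total transcript was analysed here.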

How the data were processed

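The authors aligned reads with TopHat2 2.1.1 to TAIR10, per the submitters' processing notes, and compared genes and splicing events with ASpli 1.9, per an information sheet that came with their tables. For genes the authors deposited a log2 fold change, a p-value and an FDR, but no values per library, and kept genes past a log2 fold change of 1 (either direction) and under an FDR of 0.01. For splicing events listed at a fraction difference above 0.05 and a bin FDR below 0.05, the authors deposited raw read counts per library and the retained or included fraction per group, with a p-value. Strand and multiple-match settings are not given in the sources used here.

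Numbers of genes tested were recovered from FDR = p × N / rank, which gave whole ranks within 0.01 for 96.9% (19143, MLB over EMS27) and 97% (19916, red over dark) of listed genes. The sign of the deposited gene values of MLB over EMS27 matched event reads in 26 of 26 genes. The sign of red over dark could not be checked this way, since event reads cover red-grown libraries only. Errors of gene values were implied from the authors' p-values.

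Levels per library were recomputed from the deposited counts, with exclusion reads counted doubly except for alternative splice sites. This recovered 325 of 325 and 328 of 328 deposited fractions within 0.0001, and the exception was set after seeing that it did so. Libraries held 24482 to 28447 event reads over the EMS27 and MLB table and 34004 to 38559 over that of rrc1-689 and Col-0. These are not depths, and whole-library depth is unknown. Limits of a count of 0 take 3 reads, and cover counting error only, since reads are not independent molecules. The logit of the level, with 0.5 added to both sums, was tested with limma 3.58.1 in R 4.3.3, with Benjamini-Hochberg adjustment over all events of a table at 0.05, and was checked on simulated data. An exact permutation test of 3 against 3 libraries cannot go below p = 0.1.

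Groups came from sample titles. Libraries with the same replicate number did not deviate together (correlations -0.078 to 0.109), so numbers were not treated as pairs. All members were named, with every listed gene of the wider lists and the 3 nearest genes of each member in both tables. Members and lists were chosen with earlier results of these data known. Of 4376 listed genes found in RefSeq TAIR10.1, 4373 had the same coordinates, and 243 of 243 listed introns had splice-site dinucleotides there, so sequences were read from that genome. The wider promoter window of 1000 bases was added after the data were seen. Alternatives were other thresholds, added reads, a read minimum, a quasi-binomial model, a replicate block and leaving out each library. The 12 libraries that entered no splicing table were not used, except dark-grown MLB through the authors' comparison.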

Additional observations from a re-analysis of the deposited data

How the results depend on the processing

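At an absolute log2 fold change above 2, 5 members were listed as higher in red-grown than in dark-grown MLB (6.93% of all genes tested, either direction), and 1 was listed between EMS27 and MLB (0.982%). At 1.5 the counts were 6 (11.2% of all genes) and 2 (2.19%), and at an FDR below 0.001 they were 9 (19.1%) and 3 (5.71%). Called events between rrc1-689 and Col-0 fell to 179 where the listed difference had to exceed 0.1, a setting that tests fewer events, and were 250 to 281 without 1 library. Called events between EMS27 and MLB were 202 to 293 in other settings and 249 to 261 without 1 library. Replicate numbers did not pair the libraries. With the replicate block, 276 events were called between EMS27 and MLB, 284 between rrc1-689 and Col-0, and 0 differed between the mutants, against 3 without it. Without 1 library that last count was 0 to 3. Counts of events that differed between the mutants cover only events listed in both backgrounds. With the block, the adjusted p (limma) was 0.0368 for CCD1 and 0.00473 and 0.00709 for AT5G06130 against MLB and Col-0. The AT5G06130 logit difference stayed between 3.01 and 4.21 (EMS27) and 3.06 and 3.71 (rrc1-689) without 1 library, and kept its call. Its difference between mutants was not called in any setting and lay between -0.28 and 0.92 without 1 library. This difference turned to -0.28 without MLB replicate 2, which had 0 boundary reads and the lowest level of its group. It turned to -0.10 without Col-0 replicate 1, which had 1 and 4 boundary reads and the highest level of its group. Why these libraries differed from the others was not tested. CCD1 lay between 0.82 and 1.08 without 1 library and lost its call without EMS27 replicate 1 (0.84) or MLB replicate 2 (0.82). Its listed difference is below 0.1, so that setting gave no value. With 3 libraries a group and few boundary reads, small differences were imprecise.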
